A study of Mus musculus with 20 samples.

Results

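The genes described here encode the nuclear subunits of oxidative phosphorylation, the chain of 5 mitochondrial enzyme complexes that turns the energy of NADH and succinate into ATP. They were chosen by gene symbol, as the names that begin with Ndufa, Ndufb, Ndufc, Ndufs or Ndufv, Uqcr, Cox4 to Cox8, or Atp5, together with Sdha to Sdhd and Cyc1. Of 23413 gene names in the count tables, 93 matched, and 90 of these reached at least 10 counts in at least 4 libraries. Among the 90 are 35 subunits of complex I, 4 of complex II, 9 of complex III, 18 of complex IV and 15 of complex V. The other 9 share the name but are not subunits. They are the complex I assembly factors Ndufaf1 to Ndufaf7, and Atp5s and Atp5sl.

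RNA came from the brain cortex of APOE4 mice, knock-ins of the allele Apoe tm1.1(APOE*4)Adiuj on a B6(SJL) background, in which human APOE4 replaces mouse Apoe. All mice were 22 months old and had been fed isocaloric amounts of a control diet (CD) or a ketogenic diet (KD), which is rich in fat and low in carbohydrate, for 12 months from the age of 10 months. Libraries were made from 9 females (5 on the CD and 4 on the KD) and 11 males (5 and 6), 1 per mouse. There was no group with mouse Apoe or another APOE allele, so that the comparisons are of diet and sex within APOE4 mice.

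Library totals were from 12207161 to 29109990 counts. The mouse numbers in the sample labels fall into 2 ranges of 10, E51 to E68 and E207 to E265, here called series 1 and series 2. What sets the ranges apart is not stated. Every group is in both, and totals were at least 21015275 in series 1 and at most 17697342 in series 2. Mouse Apoe was at 1.33 to 3.34 CPM (counts over the total of the library, on a common scale) in every library. CD female E228 had 14.0 CPM of the Y-linked Ddx3y, while the males had at least 163 CPM. The cortical marker Slc17a7 was present in every library, at 149.7 CPM or more, but not evenly. It was at 149.7 CPM in CD female E249 and 168.1 CPM in KD female E68, each the lowest of its group. The median was 192.2 CPM in KD females, against 415.1 in CD females, 363.7 in CD males and 385.3 in KD males. Markers of striatum, a region next to cortex, summed to 250.9 to 652 CPM in most libraries but to 1188 CPM in CD female E249 and 3794 CPM in KD male E59. In KD females the sum was at most 3249 CPM with a median of 2680 CPM, and only KD female E227 was in the range of the controls (356 CPM). In E59 the choroid plexus markers also summed to 2356 CPM, against at most 55.3 CPM in any other library. Results are therefore given with and without E227 and E249, the females that stand apart from their groups.

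Complex I oxidises NADH and passes electrons to ubiquinone. Complex II does the same from succinate. Complex III hands the electrons to cytochrome c, and complex IV passes them to oxygen. Complex V, the ATP synthase, uses the proton gradient that complexes I, III and IV build. Complexes I, III, IV and V join subunits encoded by mitochondrial DNA to nuclear ones, while complex II is encoded in the nucleus alone. Brain, which has a high demand for ATP, depends heavily on the chain. The subunits encoded by mitochondrial DNA were not analysed here.

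Sequences are shown because differences between libraries, described further on, went with base composition. Coding G+C was 46.3% in Ndufs4, an accessory subunit of complex I (chromosome 13 of GRCm38, 114287795 to 114388258, minus strand), and 65.2% in Cox8a, a small subunit of complex IV (chromosome 19, 7215153 to 7217616, minus strand). Ndufa13, an accessory subunit of complex I (chromosome 8, 69894180 to 69902558, minus strand), was at 60.2%. The last 90 coding bases before the stop codon of each, from the GENCODE M21 transcripts, are shown 5′ to 3′ as examples of the low and high end, with G and C in capitals.
Ndufs4: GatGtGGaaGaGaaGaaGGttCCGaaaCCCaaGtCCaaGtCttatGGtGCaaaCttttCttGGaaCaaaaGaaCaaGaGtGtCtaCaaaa
Ndufa13: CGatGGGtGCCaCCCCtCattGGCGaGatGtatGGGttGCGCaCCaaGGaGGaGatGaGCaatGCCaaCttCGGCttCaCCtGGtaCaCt
Cox8a: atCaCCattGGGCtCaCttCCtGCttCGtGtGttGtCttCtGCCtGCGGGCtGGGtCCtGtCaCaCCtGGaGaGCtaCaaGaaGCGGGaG
Of these bases 36 are G or C in Ndufs4, 51 in Ndufa13 and 52 in Cox8a. A short stretch need not follow the whole gene. In Ndufv2, a core subunit of complex I with a coding G+C of 46.6%, 50 of the last 90 coding bases are G or C.

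A second feature of the sequences bears on the counts. Each transcript was cut into all windows of 50 bases, the length of a read, and the windows were looked for in the transcripts of genes elsewhere in the genome. At least 10% of windows were shared in 19 of the 93 genes, and at least 40% in 7. The share was 87.4% in Atp5g2, 1 of the 3 genes for the c-ring protein of complex V, against 0.0% in Atp5g3, another of them. It was 68.5% in Atp5l, 50.5% in Atp5h and 43.2% in Uqcrb, and over 40% also in Atp5g1 and Cox7c. The levels of these genes are therefore uncertain, since how reads that fit several places were counted is not stated. An exon of another gene lies over an exon of 32 of the 93, on the opposite strand in 29. Which strand was counted is not stated, so that reads of such pairs may not have been told apart.

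Ndufs5, an accessory subunit of complex I (chromosome 4, 123712710 to 123718202, minus strand), was at 0 counts in all 20 libraries, which allows up to 3 counts per library. It shares 41.2% of its windows with other genes. The first 50 coding bases, for example, also occur in the transcript of the processed pseudogene BC002163 (chromosome 16, 42955631 to 42955949), which had 4 to 37 counts per library.
Ndufs5: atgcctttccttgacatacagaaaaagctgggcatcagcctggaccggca
Whether Ndufs5 is expressed cannot be read from these counts. Genes with a larger share of such windows were counted, with at least 30 counts per library in Atp5g2 (87.4%) and 1630 in Atp5h (50.5%). Why Ndufs5 was at 0 was not tested. Cox8c, the testis isoform of its subunit, had 1 count in all libraries together. Cox8b, an isoform of heart and skeletal muscle, reached 10 counts in 1 library only, KD male E59, with 38 counts or 1.45 CPM. That library is the one with the choroid plexus markers, and the part of those cells in this value was not tested.

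Together the 90 genes held 1.08% of the counts, with a summed level of 10816 ± 706 CPM (SD, n = 20). Levels were compared between genes per kilobase of 1 transcript each. On this scale the highest of all was Atp5b, the catalytic beta subunit of complex V, at 703 ± 70.5 CPM per kb (SD, n = 20), followed by Cox6c at 543 ± 44.3, a structural subunit of complex IV. Ndufa4, now counted as a complex IV subunit, was at 490 ± 36.2 CPM per kb and Uqcrh, the hinge protein of complex III, at 489 ± 33.2, and the latter pair did not differ beyond their spread. In complex I the highest level was that of Ndufb9 (214 ± 25.7 CPM per kb), an accessory subunit, and in complex II that of the flavoprotein Sdha (162 ± 12.3). The lowest were Ndufab1, the acyl carrier protein, in complex I (1.802 ± 0.307), Sdhc, a membrane anchor, in complex II (26.2 ± 3.98), and Uqcrq, a small subunit, in complex III (14.1 ± 1.71). In complex IV the lowest was Ndufa4l2 (0.556 ± 0.262) and in complex V Atp5g2 (7.30 ± 2.64), whose windows are largely shared. The assembly factors ran from 6.77 ± 0.919 CPM per kb in Ndufaf6 to 36.2 ± 4.67 in Ndufaf5.

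**Figure D1:**
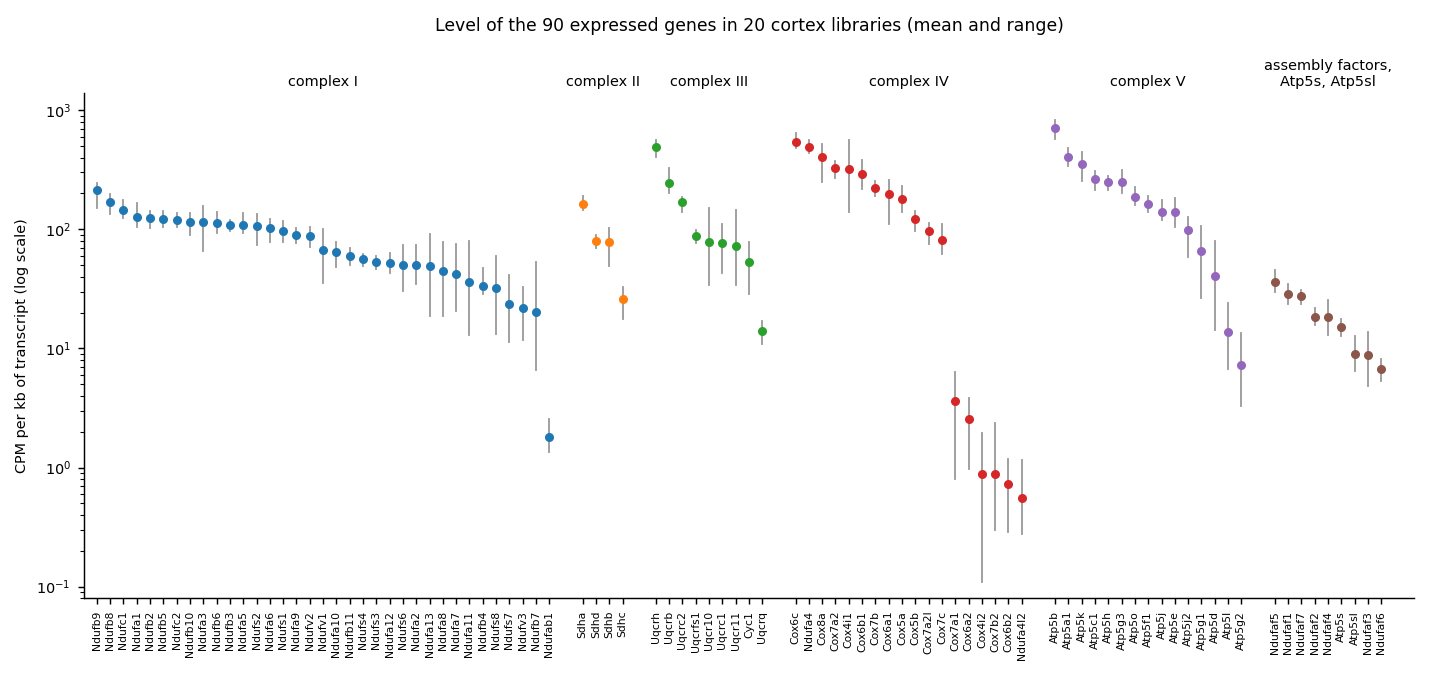
Level of each of the 90 genes in CPM per kb of transcript (log axis) in 20 libraries, with the mean as a point and the range as a line, ordered by level within each complex. Atp5b stands highest, and 6 genes of complex IV and Ndufab1 lie below 5 CPM per kb.

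The median level was 67.1 CPM per kb in complex I, 78.8 in complex II, 77.9 in complex III, 150 in complex IV and 163 in complex V. At least 100 CPM per kb was reached by 14 of 35 genes in complex I, 1 of 4 in II, 3 of 9 in III, 10 of 18 in IV and 10 of 15 in V. These orders depend on the transcript taken for the length. In 13 of the 93 genes the transcripts marked as principal or in CCDS differ in length by more than 1.5 times. Uqcrq is at 52.9 CPM per kb with the shorter of its transcripts, and Ndufab1 at 4.43.

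Complex IV has pairs of isoforms for the same place in the enzyme, 1 used in most tissues and 1 in particular tissues or states. In cortex the common form was the far higher in every pair. Cox4i1 was at 322 ± 99.97 CPM per kb (SD, n = 20) and Cox4i2, the form known from lung and from low oxygen, at 0.885 ± 0.380, a share of 0.0617% to 0.639% of the pair over the libraries. For Cox6a2, the form of heart and skeletal muscle that is also known in parvalbumin interneurons, the share was 0.598% to 1.94% of the pair with Cox6a1. Cox7a1, the other muscle form, made up 0.254% to 1.82% of the pair with Cox7a2. Ndufa4l2, which low oxygen induces in many cells, was at 0.0615% to 0.248% of the pair with Ndufa4. These minor forms had few counts, from 1 to 39 in Cox4i2 and from 8 to 67 in Cox6a2. The part of counting error in their spread was not tested.

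The 5 complexes were at about the same summed level in all groups. Complex I summed to 2535 ± 189 CPM in CD females (SD, n = 5), 2685 ± 189 in KD females (n = 4), 2666 ± 147 in CD males (n = 5) and 2669 ± 229 in KD males (n = 6). Complex V, the most abundant, summed to 3730 ± 262, 3939 ± 284, 4004 ± 230 and 3915 ± 283 CPM in the same order. Complex IV was at 2065 ± 217, 2100 ± 169, 2171 ± 136 and 2193 ± 218 CPM. For complex III the sums were 1106 ± 48.4, 1128 ± 84.0, 1158 ± 47.2 and 1128 ± 46.1 CPM, and for complex II 708 ± 49.8, 771 ± 60.1, 754 ± 52.3 and 734 ± 71.4 CPM. In every complex the KD and CD libraries of each sex overlapped. The members' sum was 11317 ± 415 CPM in series 1 (n = 10) and 10314 ± 567 CPM in series 2 (n = 10). No test was run on these sums.

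**Figure D2:**
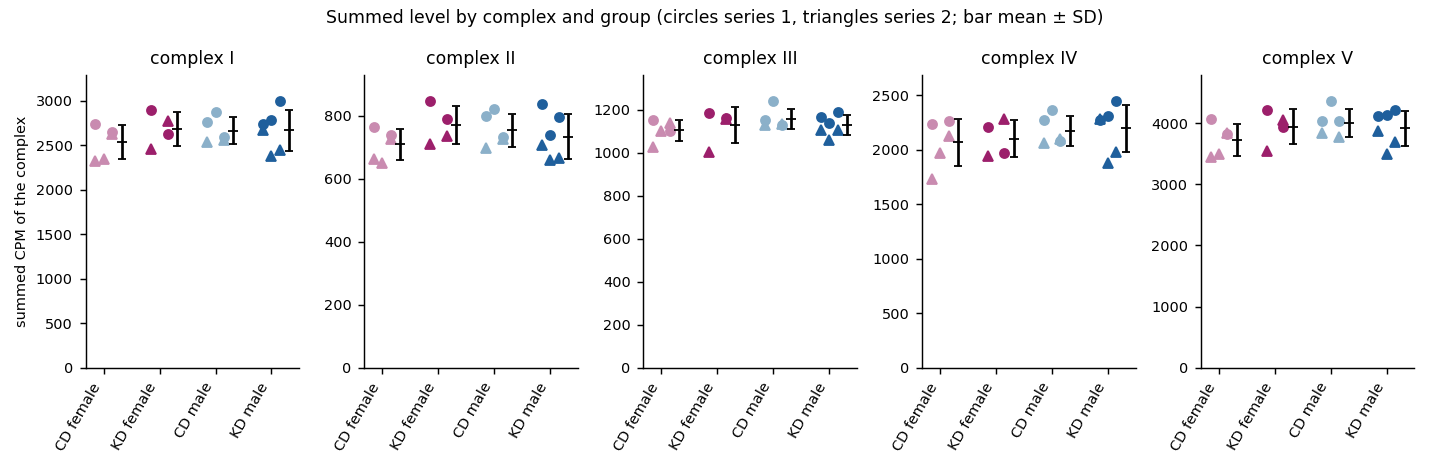
Summed CPM of the genes of each complex by group, 1 point per library (circles series 1, triangles series 2), with the mean ± SD beside them and axes from 0. The groups overlap in all 5 panels, and most triangles lie below the circles of their group.

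The first comparison asks whether the KD changed expression of these genes. In females no gene of the 90 was called by edgeR's quasi-likelihood test at a Benjamini-Hochberg adjusted p of 0.1 and a 1.5-fold change (the rule for differentially expressed genes, DEGs), against 7 of all 15660 genes tested, or 0.0447%. At an unadjusted p under 0.05 there was 1 of 90, Uqcrq, against 1780 genes or 11.4%. Between KD and CD females 50 of the 90 had a fold change above 1 and 40 below. The median log2 fold change was 0.022, and 0.013 over all genes tested. By complex it was 0.041 in I, 0.081 in II, 0.018 in III, -0.043 in IV and 0.012 in V, and -0.020 in the genes that are not subunits.

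In males 0 of the 90 were called, as were 0 of all genes (0.0%). At an unadjusted p under 0.05 there were again 0, against 557 genes or 3.56%. The median log2 fold change was -0.010, with 41 genes above 0 and 49 below, and -0.003 over all genes. Without KD male E59, where 89 of the 90 passed the filter, 0 were called and the median was -0.003. The complexes had medians of 0.004 (I), -0.025 (II), -0.018 (III), -0.018 (IV) and -0.003 (V).

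The size of change that these libraries leave possible can be read from the 95% intervals. In females the whole interval lay within a 1.5-fold change in either direction for 69 of the 90 genes, and in males for 70. The median standard error was 0.118 in females and 0.106 in males on the log2 scale, against 0.186 and 0.167 over all genes. Among the genes with wider intervals are the low isoforms (Cox4i2, Cox6a2, Cox6b2, Cox7a1, Cox7b2, Ndufa4l2) and a group of G+C-rich genes described further on (Ndufb7, Ndufa11, Ndufa13, Ndufs8, Atp5d, Cox4i1). For those genes a 1.5-fold change was not excluded at this spread.

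**Figure D3:**
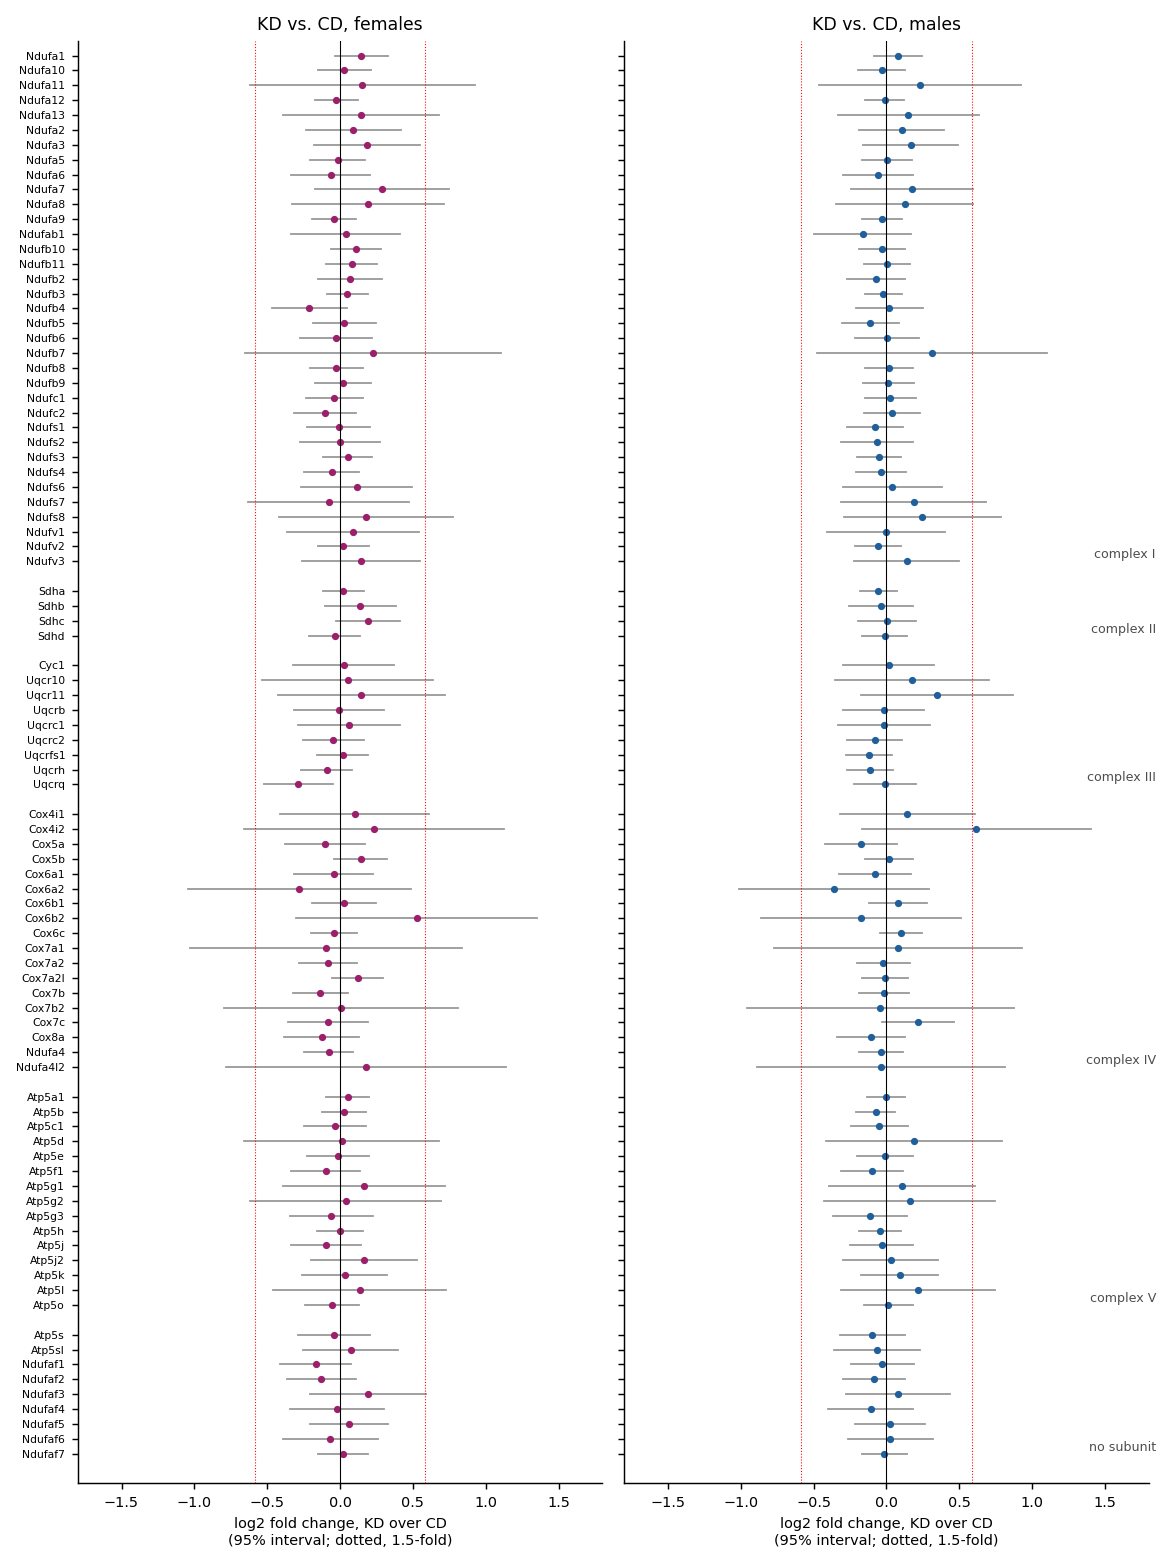
Log2 fold change of each gene, KD over CD, in females (left) and males (right), with the 95% interval from edgeR and dotted lines at a 1.5-fold change. The whole interval stays inside the dotted lines for 69 of the 90 genes in females and 70 in males, and only that of Uqcrq in females excludes 0.

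In complex I the 7 nuclear core subunits carry the flavin and the iron-sulfur clusters. Their log2 fold changes on the KD ran from -0.08 (Ndufs7) to 0.18 (Ndufs8) in females and from -0.08 (Ndufs1) to 0.25 (Ndufs8) in males. Ndufs1, the largest of them, was at 243, 231, 310.0, 269.8 and 247 CPM in CD females and at 262, 291.5, 263 and 249.1 CPM in KD females. It was at 227.7, 259, 266, 271 and 249.9 CPM in CD males, and from 206.6 to 266 CPM with a median of 250.1 in KD males. The groups overlapped in both sexes, with log2 fold changes of -0.01 (standard error 0.103) in females and -0.08 (0.0928) in males. Part of an exon of Ndufs1 lies opposite an exon of Eef1b2. Ndufv1, which binds NADH, varied more between mice. It was at 131, 116, 58.5, 58.9 and 119.5 CPM in CD females and 124, 80.9, 96.2 and 124 CPM in KD females. In CD males it was at 157, 147.5, 103, 94.2 and 104 CPM, and in KD males from 77.8 to 168 CPM with a median of 120.4. The lowest values of each group came from series 2 in all groups except KD females, where E68 of series 1 was lowest.

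In complex II, Sdha, which oxidises succinate, had the smallest spread of all 90 genes, a residual SD of 0.0675 on the log2 scale. It was at 487, 465.7, 446, 426 and 455 CPM in CD females and 523.5, 512, 465.5 and 448 CPM in KD females. CD males were at 508, 515, 459, 448 and 463 CPM, and KD males between 417.5 and 547 CPM (median 446). The log2 fold change was 0.02 (standard error 0.0677) in females and -0.06 (0.0610) in males. Sdhc was at 84.3, 84.0, 70.5, 56.4 and 85.4 CPM in CD females and at 104.5, 86.1, 87.0 and 88.9 CPM in KD females. Here every KD female was above every CD female, although by little (86.1 against 85.4 CPM). The log2 fold change was 0.19 (standard error 0.106, unadjusted p = 0.0876 from edgeR). In males it was 0.00 (0.0954), with CD males at 89.7, 93.7, 81.9, 69.5 and 82.1 CPM and KD males from 62.9 to 102 CPM around a median of 87.9. Sdhb, an iron-sulfur protein, and Sdhd, a membrane anchor, had log2 fold changes of 0.14 and -0.04 in females.

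The KD and CD libraries failed to overlap for 2 of the 90 genes in females, Sdhc and Ndufa1, against 2.1% of all genes. In males they failed to overlap for 0 of the 90, against 0.217%. Ndufa1, an X-linked accessory subunit of complex I (chromosome X, 37187588 to 37191163, minus strand), was at 51.6, 54.3, 50.95, 46.9 and 52.4 CPM in CD females and at 70.0, 58.2, 55.5 and 55.8 CPM in KD females. The log2 fold change was 0.15 (standard error 0.0871, unadjusted p = 0.108 from edgeR). With the striatal score, the mean z-score of the striatal markers in a library, as a covariate it was 0.02. In males the libraries overlapped, with CD males at 49.9, 53.4, 48.6, 46.8 and 50.2 CPM and KD males at 43.9 to 67.1 CPM (median 51.4). The share of genes that do not overlap was thus near that over all genes.

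In complex III, Uqcrq (chromosome 11, 53427922 to 53430831, minus strand) was at 22.3, 23.1, 18.7, 23.5 and 22.4 CPM in CD females and at 22.25, 16.6, 16.7 and 20.1 CPM in KD females. The groups overlapped only through CD female E249, and the other 4 CD females were above every KD female. The log2 fold change was -0.29 (standard error 0.114, unadjusted p = 0.0210, adjusted p = 0.334 from edgeR). In males it was -0.01 (0.101), with CD males at 24.9, 23.3, 17.7, 21.15 and 23.6 CPM and KD males from 19.5 to 25.7 CPM (median 21.4). The difference between the sexes in this effect was -0.28 (95% interval -0.60 to 0.04, unadjusted p = 0.0845). Uqcrfs1, the Rieske iron-sulfur protein, had the third smallest p in males. It was at 115, 130, 132, 119 and 122 CPM in CD males and at 109 to 121 CPM (median 114) in KD males, a log2 fold change of -0.12 (0.0759, unadjusted p = 0.126). In females it was at 116, 113, 104, 123 and 122 CPM on the CD and 128, 135, 111.5 and 116 CPM on the KD. The core proteins Uqcrc1 and Uqcrc2 had log2 fold changes of 0.06 and -0.05 in females and -0.02 and -0.08 in males. For Cyc1, cytochrome c1, they were 0.03 and 0.01.

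In complex IV the largest fitted changes were in genes with few counts. Cox4i2 had a log2 fold change of 0.62 in males (standard error 0.375, unadjusted p = 0.116). It was at 0.737, 0.584, 0.443, 0.502 and 0.345 CPM in CD males and from 0.322 to 1.40 CPM (median 0.768) in KD males, so that the groups overlapped. In females the log2 fold change was 0.23 (0.427). Cox6b2, the testis form of its subunit, was fitted at 0.53 (0.395) in females and -0.18 (0.327) in males. Cox4i1, the common form, was at 264.05, 253, 104, 132 and 254.2 CPM in CD females and at 254.3, 160, 204 and 269.7 CPM in KD females. CD males had 342, 296, 196, 193 and 226.9 CPM, and KD males 168 to 418.5 CPM (median 277). These ranges are among the widest of the abundant subunits and overlapped in both sexes. An exon of Cox4i1 lies opposite an exon of Emc8.

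Ndufa4 varied little, with 281, 278, 330, 326 and 293 CPM in CD females and 276, 274, 287 and 341 CPM in KD females. In CD males it was at 268, 308, 301, 321 and 300.3 CPM, and in KD males from 274 to 328 CPM (median 290.4). Log2 fold changes were -0.08 (0.0799) in females and -0.04 (0.0721) in males. Of the other common subunits, the log2 fold change of Cox5a was -0.10 and -0.17, that of Cox5b 0.14 and 0.02, of Cox6a1 -0.04 and -0.08, of Cox7a2 -0.08 and -0.02 and of Cox8a -0.13 and -0.10, females first.

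In complex V, Atp5b (chromosome 10, 128083273 to 128090391, plus strand) was at 1473, 1337, 1104, 1129 and 1297 CPM in CD females and 1496, 1370, 1234 and 1345 CPM in KD females. CD males were at 1437, 1592, 1454, 1304 and 1300 CPM, and KD males from 1160 to 1493 CPM (median 1361). The log2 fold change was 0.03 (standard error 0.0718) in females and -0.07 (0.0648) in males, and both 95% intervals lie within a 1.5-fold change. Its partners in the catalytic head, Atp5a1 and Atp5c1, were at 0.05 and -0.03 in females and -0.00 and -0.05 in males. The c-ring genes Atp5g1, Atp5g2 and Atp5g3 were at 0.16, 0.04 and -0.06 in females, and at 0.11, 0.16 and -0.11 in males.

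Whether the effect of the KD differed between the sexes was tested as an interaction, the effect in females minus that in males. No gene of the 90 was called, nor was any of all genes (0.0%). At an unadjusted p under 0.05 there were 0 of 90, against 335 genes or 2.14%. The smallest p among the 90 was that of Uqcrq. Cox7c, a small complex IV subunit, had an interaction of -0.30 (standard error 0.176, unadjusted p = 0.105), from -0.08 in females and 0.22 in males. Within series 2 alone it was -0.02 and within series 1 -0.53.

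Over both sexes together 0 of the 90 were called, against 42 of all genes or 0.268%. At an unadjusted p under 0.05 there were 0 of 90, against 2169 genes or 13.9%. The median log2 fold change was -0.003, with 44 genes above 0 and 46 below. The 95% interval lay within a 1.5-fold change for 80 of the 90. The smallest p was that of Uqcrq (-0.15, standard error 0.0759, unadjusted p = 0.0677), and next were Ndufa1 (0.11, 0.0585, unadjusted p = 0.0694) and Uqcrh (-0.10, 0.0558, unadjusted p = 0.0820).

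Females were compared with males over both diets. No gene of the 90 was called, against 21 of all genes or 0.134%, a count that includes genes of the sex chromosomes. At an unadjusted p under 0.05 there were 2 of 90, both lower in females, against 2122 genes or 13.6%. The median log2 difference was -0.038, with 60 of the 90 lower in females, and 0.003 over all genes. It was -0.115 in complex III, -0.053 in V, -0.038 in I, -0.035 in IV and 0.012 in II. With the score of the cytosolic ribosomal protein genes as a covariate, the median over the 90 turned to 0.002.

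Ndufb9 (chromosome 15, 58933756 to 58939488, plus strand) was the gene of smallest p in this comparison. It was at 155, 146, 105, 123 and 147 CPM in CD females and at 148.5, 128.5, 130.5 and 165 CPM in KD females. CD males were at 167.5, 168, 153, 149 and 158 CPM, and KD males between 143 and 174 CPM (median 166). The sexes overlapped, but the lowest 4 libraries were all from females. The log2 difference was -0.21 (standard error 0.0629, adjusted p = 0.196 from edgeR, unadjusted p = 0.00387). Without KD female E227 it was -0.25 with an adjusted p of 0.0176, still short of a 1.5-fold change. With the striatal score as a covariate it was -0.16, with an adjusted p of 1.0. With an offset for the G+C content of the transcripts it was -0.14 (adjusted p = 0.217). An exon of Gm49356, which the count tables do not list, lies over an exon of Ndufb9 on the same strand.

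Cox6a2 (chromosome 7, 128205435 to 128206387, minus strand) was the gene whose result turned most on single mice. It was at 1.999, 1.175, 0.655, 1.75 and 2.03 CPM in CD females and at 1.165, 0.8185, 0.662 and 2.63 CPM in KD females, the last being E227. In CD males it was at 2.34, 2.30, 2.46, 2.01 and 2.30 CPM and in KD males from 1.14 to 2.41 CPM (median 1.75). The lowest values were from CD female E249 and KD females E207 and E68, and next were KD male E254 at 1.144 CPM and KD female E61.

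The log2 difference between females and males was -0.52 (standard error 0.246, unadjusted p = 0.0480, adjusted p = 0.362 from edgeR). Without KD female E227 it was -0.80 (0.202, adjusted p = 0.0286), and the gene was called, as were 5.1% of all genes in that fit. The effect of the KD over both sexes was -0.32 (0.241, adjusted p = 0.614). Without E227 it was -0.64 (0.203, adjusted p = 0.0852) and called, as were 4.19% of all genes. In females the effect of the KD was -0.28 with all libraries (0.366, adjusted p = 0.867) and -0.92 without E227 (0.328, adjusted p = 0.129), and the gene was not called in either fit. Within series 1 alone it was -0.71 and within series 2 alone 0.08. Without E227 and E249 it was -1.05 (0.289, adjusted p = 0.0209) and called, and the effect over both sexes was -0.70 (0.177, adjusted p = 0.0125). Leaving out this pair called 12.2% and 7.83% of all genes, and for the sex difference (-0.72, 0.177) 3.24%. Reads were few, 8 and 9 counts in E249 and E207, and an exon of Itgad lies opposite an exon of Cox6a2.

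In females the libraries with a high striatal score had low Cox6a2. The score was 1.799 in E207, 1.63 in E61, 1.54 in E68 and 0.801 in E249, and from -0.860 to -0.445 in the other 5 females. CD female E67, with a score of -0.445, had 1.175 CPM of Cox6a2, close to E61, and E227, with -0.459, had the highest value of all libraries. Pvalb, the marker of the interneurons in which Cox6a2 is known, was at 26.7, 30.5, 26.6 and 11.5 CPM in the same 4 females and at 53.05 to 108 CPM in the other 5. The summed level of the 8 inhibitory neuron markers, Pvalb among them, went the other way. It was 1801 CPM in E249, against at most 1052 CPM in the other CD females. In KD females it was 800 CPM in E227 and up to 1978 CPM (E68), with a median of 1761. In KD females Lhx6 and Slc32a1 of this list had log2 fold changes of 0.80 and 1.14. KD male E59, with a score of 1.94, had 2.32 CPM of Cox6a2 and 80.8 CPM of Pvalb. KD males E64 and E254, with scores of -0.384 and -0.463, had 23.1 and 23.4 CPM of Pvalb and 2.41 and 1.144 CPM of Cox6a2. With the striatal score as a covariate and all 20 libraries, the effect of the KD on Cox6a2 in females was 0.02 (standard error 0.402) and the difference between the sexes -0.41 (0.242). Fewer cells of a type and less RNA per cell cannot be told apart in these libraries.

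The other 89 genes stayed uncalled when E227 and E249 were left out. In females the median then was -0.074, with 28 genes above 0 and 62 below, and 6 of 90 were at an unadjusted p under 0.05, against 25.7% of all genes. The count of females is then 3 KD against 4 CD, and 3 of these KD females carry the striatal markers.

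A difference between series 1 and series 2 was the clearest pattern in these genes. At an adjusted p of 0.1, 22 of the 90 were lower in series 2 and 7 higher, against 15.6% and 17.6% of all genes. The median log2 difference, series 2 over series 1, was -0.104, with 63 genes lower, and -0.016 over all genes. All 4 subunits of complex II were lower in series 2, and the median was -0.130 in complex I, -0.089 in IV, -0.077 in V, -0.040 in III and 0.031 in the genes that are not subunits. Ndufb7 and Ndufa13 of complex I were the genes past a 1.5-fold change, with -0.69 (standard error 0.284) and -0.59 (0.174). The highest were Cox7b2, with few counts (0.45), and Atp5e, the epsilon subunit of complex V (0.36, standard error 0.0684). Series was a term of every main comparison, and each group has both series.

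These differences went with the G+C content of the transcript. Among the 30 genes of highest G+C (54.6% to 61.1%), 29 were lower in series 2, with a median of -0.337, while among the 30 of lowest G+C (36.7% to 49.0%) 14 were lower and the median was 0.023. Across the 90 genes Spearman's rho between the series difference and G+C was -0.696, and -0.651 across 15498 genes. For females over males it was -0.643 across the 90 and -0.355 across all. For the effect of the KD it was 0.379 in females and 0.429 in males, against 0.145 and 0.123. These are correlations across genes of the same libraries, which are not independent, and no test was made. For the examples shown above, the series difference was 0.07 in Ndufs4, -0.59 in Ndufa13 and -0.30 in Cox8a. For comparison, the KD medians of the G+C-rich 30 were 0.105 in females and 0.080 in males, and those of the G+C-poor 30 were -0.015 and -0.035.

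**Figure D4:**
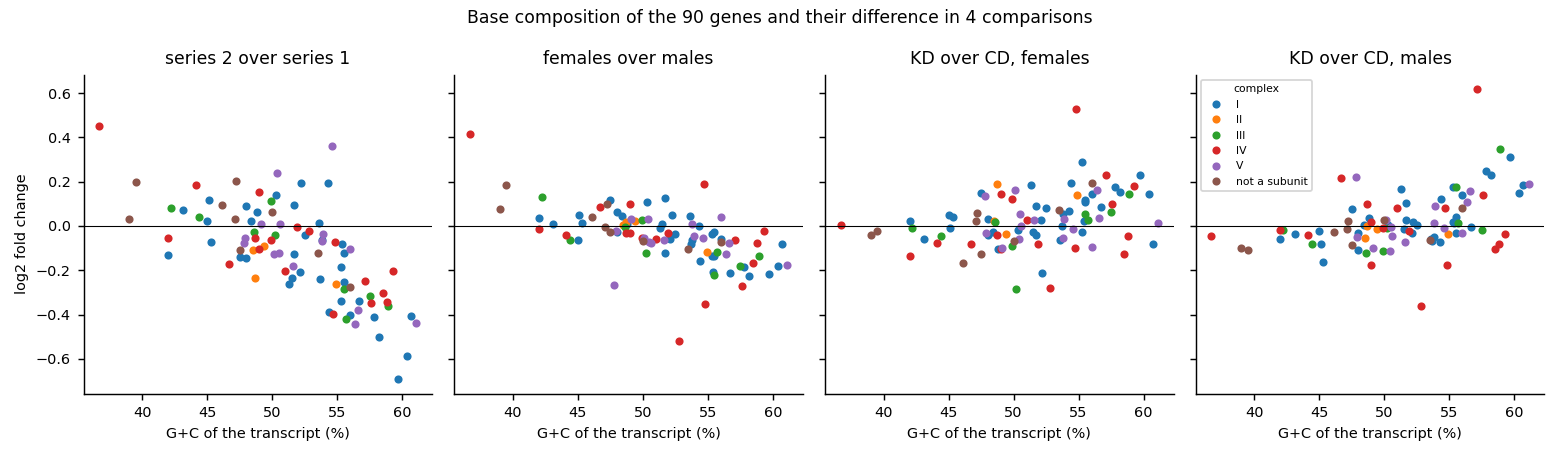
Log2 fold change of the 90 genes against the G+C content of their transcripts in 4 comparisons, 1 point per gene, coloured by complex. The points fall to the right for series 2 over series 1 and for females over males, and rise to the right for KD over CD.

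The spread between mice was also larger in the G+C-rich genes. The residual SD within groups had a median of 0.380 on the log2 scale in the 30 genes of highest G+C and 0.145 in the 30 of lowest. It was 0.173 over the 90 and 0.277 over all genes tested. Genes with few counts were also among the widest, such as Cox7a1 (0.702) and Cox7b2 (0.611), the latter with a G+C content of 36.7%. The parts of level and base composition in the spread were not tested. Ndufb7, with a G+C content of 59.7%, had a residual SD of 0.697. It was at 17.1, 11.8, 4.10, 4.69 and 12.6 CPM in CD females and at 17.0, 6.25, 8.98 and 15.55 CPM in KD females. In CD males it was at 22.0, 14.9, 8.59, 6.78 and 10.1 CPM and in KD males from 5.35 to 33.0 CPM (median 13.5). Ndufa13 was likewise at 74.5, 64.1, 23.6, 32.1 and 65.2 CPM in CD females and at 80.25, 42.7, 48.2 and 66.7 CPM in KD females. CD males had 94.0, 78.5, 51.1, 43.2 and 51.8 CPM of it, and KD males 40.7 to 113 CPM (median 69.2). An exon of Ndufa13 lies opposite an exon of Tssk6. In both genes CD females E249 and E265 were the lowest libraries and KD male E64 the highest.

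The contrast within a library can be given as the median deviation of the 30 G+C-rich genes minus that of the 30 G+C-poor genes, on the log2 scale. It ran from -0.497 (KD female E68) to 0.695 (KD male E64) in series 1, with a median of 0.222. In series 2 it ran from -0.821 (CD female E249) to 0.412 (KD male E213), with a median of -0.134. By group the median was 0.183 in CD females, 0.065 in KD females, -0.054 in CD males and 0.202 in KD males, and the ranges overlapped. What part base composition has in any difference between groups was not tested beyond the offset fit given in the closing section.

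**Figure D5:**
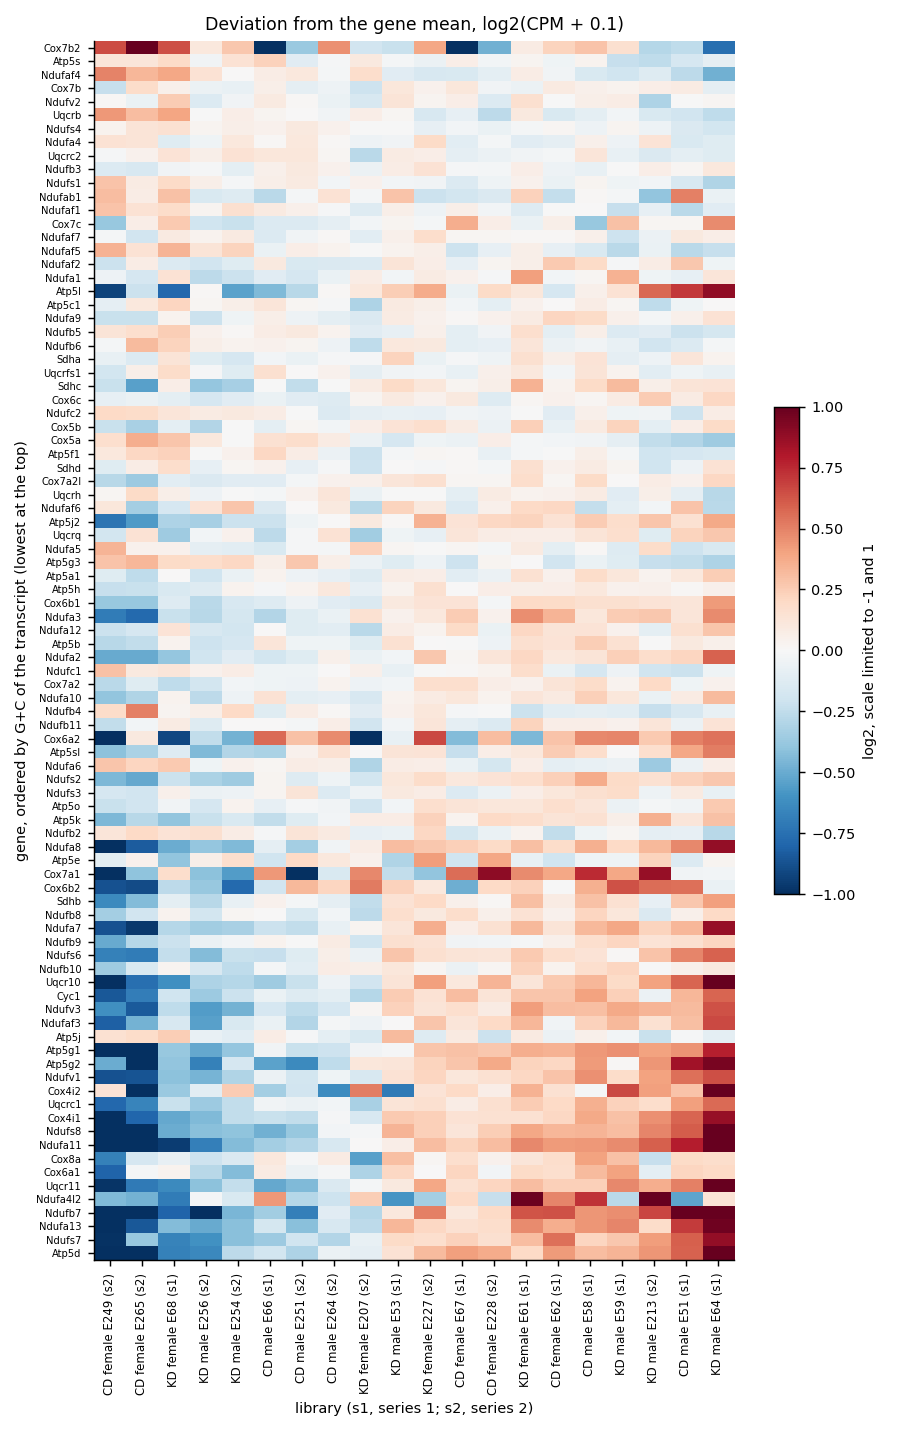
Deviation of each of the 90 genes from its own mean, in log2(CPM + 0.1), in 20 libraries. Genes are ordered by G+C content from top to bottom, libraries by the contrast between G+C-rich and G+C-poor genes from left to right, and colours are limited to -1 and 1. The G+C-rich genes at the bottom turn from blue on the left, with CD females E249 and E265, to red on the right, with KD male E64.

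The promoters of these genes hold motifs of known regulators of mitochondrial genes. RefSeq promoters (GRCm38.p6, 250 bases before to 50 after the start) were given for 76 of the 93 genes that match by name, Cox8b and Ndufs5 among them. The NRF1 core GCGCATGC was present on either strand in 12 of the 76, or 15.8%, against 3.05% of 27025 promoters. The ETS site CCGGAAG, bound by GABP, was present in 22.4% against 9.93%, and the YY1 site AAGATGGCG in 10.5% against 1.64%. A match describes the letters only. The genes of these and other regulators did not stand out by diet. Of 14 regulators of mitochondrial biogenesis tested, 0 were called and 0 passed an unadjusted p of 0.05 in either sex. The smallest p of the list was that of Gabpa in females (0.17, standard error 0.123) and of Tfb2m in males (-0.17, 0.106).

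Other genes of the pathway were counted from fixed lists, and none of these lists had a called gene for the KD in either sex. Of 33 assembly factors outside the naming rule, 1 was at an unadjusted p under 0.05 in females, Ttc19 (-0.23, standard error 0.108), which acts in complex III, and 1 in males, Sco1 (-0.25, 0.103), which delivers copper to complex IV. Their medians were -0.017 and -0.010. Of 15 genes of electron carriers, coenzyme Q synthesis and further ATP synthase parts, 0 passed in either sex, with medians of 0.018 and -0.011. The 14 genes of the tricarboxylic acid cycle had 0 in either sex, with medians of -0.013 and -0.057, and Idh3a, of the enzyme isocitrate dehydrogenase, was first by p among them in both (-0.17 and -0.16). Among 76 mitochondrial ribosomal proteins, 1 passed in females, Mrps18b (-0.33, 0.156), and 0 in males, with medians of 0.030 and 0.001. For 12 carriers, uncoupling proteins and antioxidants, 0 passed in either sex. Ucp2 was first by p in females (0.62, 0.322). The cytosolic ribosomal proteins, 73 of them tested, had medians of 0.113 and 0.057, with 3 higher at an unadjusted p under 0.05 in females and 1 in males.

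Markers of cell types were counted in the same way, at an unadjusted p under 0.05. None was called in either sex. Of 11 striatal markers 9 were higher in KD females (median log2 fold change 2.09), and of 10 markers of cortical excitatory neurons 4 were lower (median -0.93). Of 8 genes each, 3 were higher and 1 lower for inhibitory neurons (median 0.15), 2 lower for pan-neuronal genes (-0.18), 3 higher for microglia (0.32), 1 higher for astrocytes (0.16), and 0 for oligodendrocytes (0.25), endothelium (0.04) and pericytes and smooth muscle (0.26). Choroid plexus had 0 of 6 (0.22). In males the medians were 1.15 for striatum, -0.19 for cortical excitatory neurons, -0.05 for inhibitory neurons, -0.14 for pan-neuronal genes, 0.10 for microglia, 0.09 for astrocytes, -0.41 for oligodendrocytes, -0.05 for endothelium, 0.24 for pericytes and smooth muscle and 2.12 for choroid plexus. At that p there were 5 of 6 choroid plexus genes higher in males, and 2 of 8 oligodendrocyte genes lower. The medians for striatum and choroid plexus in males rest on KD male E59. Without it they were -0.32 and -0.03, with 0 genes of either list at that p, and 5 of 8 oligodendrocyte genes were lower (median -0.55). With the striatal score as a covariate the median of the 90 was 0.043 in females and -0.000 in males, and 0 were called. The part of the other cell types in the levels of the 90 was not tested.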

How the data were processed

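Frozen brain cortex of 20 mice gave 1 stranded total RNA library each, sequenced as 50-bp read pairs. Reads were mapped by the authors with STAR (mm10), and whole-number counts per gene were deposited without normalization. The versions, the annotation and the strand counted are not given in the sources used here. Groups came from the sample labels, where SD is the control diet, and series from the mouse numbers in those labels.

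From the deposited counts, CPM were computed against the library total, and log2 CPM (prior count 2) for scores and spreads. The 15660 genes that passed filterByExpr were tested in R 4.3.3 with edgeR 4.0.16, by the quasi-likelihood F test with robust estimates, upper-quartile normalization and Benjamini-Hochberg adjustment. The model held the 4 groups and the series, in 1 fit of all 20 libraries, so that both sexes share 1 estimate of the spread. Genes were called at FDR 0.1 and a 1.5-fold change. All 90 expressed members were in the fit. The study's RUVg step was run only as an alternative, written anew, with 1 factor and all but the 5000 genes of smallest p as controls. Intervals are at 95%.

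Coordinates, lengths, G+C contents and windows came from 1 transcript per gene of GENCODE M21 (GRCm38), which matched all 93 symbols, 92 of them directly. None of 41 pairs of mice in a group differed by as little as counting noise (chi-square per degree of freedom 6.90 or more). No replicate number is shared between groups. Totals of 12207161 counts or more per library set the precision, and limits from a count of 0 cover counting error only. The main fit and the likelihood ratio test were run on simulated data for diet in females only. The other comparisons and alternatives were not run on simulated data.

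Members with values in the text are the nuclear core subunits of complex I, the main subunits of the other complexes and the tissue isoforms. Of the members of small p in each comparison only some are given. Ndufb4 and Cox7b, lower in KD females (unadjusted p = 0.103 and 0.146 from edgeR), are not. The others given are the highest and lowest per kb of each complex, and those whose diets do not overlap. Cox7b2, Uqcrb, Ndufb7, Ndufa13, Ndufa11, Ndufs4, Ndufs5, Cox8c, Atp5d, Atp5h, Atp5l, Atp5e and the assembly factors as a set were named outside this rule or after their values were seen. The members and the gene lists were chosen with earlier results of these data known. Alternatives were TMM, DESeq2 size factors and the Wald test of DESeq2 1.42.0, the likelihood ratio test, other filters, no series term, RUVg, scores as covariates, length and G+C offsets, each series or sex alone, and leaving out mice.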

Additional observations from a re-analysis of the deposited data

Results flagged for a closer look

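A library was set apart where its gap to the nearest of its group was large for the group's range (Dixon's test). Among 84 group checks, over the complex sums, the members printed by mouse and the members' median deviation, 6 libraries stood apart, and about 1 in 20 checks, or 4.2, would by chance.

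In complex III, KD female E207 had a summed level of 1004 CPM against 1158 to 1188 CPM in the other KD females (gap over range 0.840), and CD male E58 had 1241 CPM against 1128 to 1155 CPM (0.764). Ndufs1 was at 206.6 CPM in KD male E64 and 248 to 266 CPM in the other KD males (0.694). Sdhc was at 104.5 CPM in KD female E61 and 86.1 to 88.9 CPM in the others (0.847). Uqcrq was at 18.7 CPM in CD female E249 and 22.3 to 23.5 CPM in the others (0.754). Cox4i2 was at 0.0794 CPM in CD female E265, which is 1 count, and 0.622 to 0.689 CPM in the others (0.889).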

How the results depend on the processing

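Of the counts of called members, all 36 alternatives gave 0 in males and all 35 gave 0 for the interaction. In females 35 of 36 gave 0, and over both sexes and for females against males 33 of 35 each. The exceptions are Cox6a2, called without KD female E227 (0 to 1 over the fits that leave out 1 mouse) over both sexes and between the sexes, and without E227 and E249, a choice made after the values were seen, where 1 member was called in females, 1 over both sexes and 1 between the sexes. The medians of the members moved by less than the SD between libraries of a group (0.0837 on the log2 scale) in all alternatives but 2. Without E227 and E249 the median was -0.0737 in females and -0.0751 for the interaction. The SD used here is that of single libraries and not the error of a difference between groups, so that the limit is wide.

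Leaving out 1 mouse at a time, the median ran from -0.0426 to 0.0437 in females, -0.0164 to 0.0082 in males, -0.0315 to 0.0649 for the interaction, -0.0183 to 0.0191 over both sexes and -0.0703 to -0.0223 for females against males. The lowest of these in females was without E227, and within series 1 alone the median there was -0.059 and within series 2 alone 0.046, so that its sign is not fixed. Over all alternatives, not only those that leave out 1 mouse, the number of members at an unadjusted p under 0.05 ran from 0 to 6 in females, 0 to 1 in males, 0 to 2 for the interaction, 0 to 6 over both sexes and 0 to 10 between the sexes, the last without E227. In that last fit 1988 genes were higher and 1820 lower at that p, of 15949. Over both sexes the 6 came without KD female E68, where 1189 genes were higher and 1074 lower, of 15657. In females the 6 came without E227 and E249, where 25.7% of all genes were at that p. Uqcrq in females stayed under a 1.5-fold change in every fit. Its adjusted p was 0.0976 with the ribosomal score and 0.0578 without E227 and E249, where 12.2% of all genes were called for the KD in females. Other fits went the other way. For the KD in females, 5 of the 36 had no member, and so not Uqcrq, with an unadjusted p below 0.05. Among these were series 1 alone and the fit without KD female E207. With the G+C offset, chosen after the values were seen, 0 were called in any comparison. The median then was 0.0013 in females against 0.022 without the offset, and 0.0035 in males against -0.010. For females against males it was -0.038 in both fits, with 60 of the 90 lower in females. That median was -0.0083 with the length offset (50 of 90 lower). It was -0.065 within series 1 alone (60 of 90 lower) and -0.0076 within series 2 alone (50 of 88 lower). No paired analysis was possible because the groups share no replicate numbers. Summed levels of the complexes with upper-quartile library sizes moved by less than the SD between mice in all 20 group means. The order of the diets nevertheless turned in some. Complex III was then at 1123.8 in CD and 1099.2 in KD females, and complex IV at 2096.5 and 2045.4. Complex I was at 2684.3 in CD and 2661.7 in KD males. The direction of these small differences thus depends on the scaling.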
